A study of Homo sapiens with 4 samples.

Results

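The clustered protocadherins are the protein-coding genes of 3 neighbouring arrays on the long arm of chromosome 5, called alpha (PCDHA), beta (PCDHB) and gamma (PCDHG). Members were taken by gene symbol alone, as every protein-coding gene whose symbol begins with PCDHA, PCDHB or PCDHG, which gave 53 of the 60725 genes in the count table: 15 in PCDHA, 16 in PCDHB and 22 in PCDHG. Transcripts were read by polyA RNA sequencing in RPE1 SunTag cells, an hTERT-immortalized human retinal pigment epithelial line that carries the SunTag system, after depletion of TOP2B. A pool of siRNAs against TOP2B (Dharmacon on target plus smart pool) was given to the knockdown group (2 libraries), and the control group (2 libraries) received Silencer Select Negative Control No. 2. Both groups received 10 nM of siRNA, a second transfection 48 h later, and were harvested a further 72 h on. The 4 libraries thus come from 1 cell line, in which any change may follow from loss of TOP2B or from the different siRNAs, and these cannot be told apart.

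Clustered protocadherins are cadherin-like proteins of the cell surface, best known from neurons, where each cell switches on a small selection of them and the resulting combination lets a cell recognize its own processes. Each gene has its own promoter and its own large first exon, which encodes the extracellular domains, the membrane span and part of the cytoplasmic tail. In the alpha and gamma arrays this first exon is spliced to a common set of constant exons, whereas beta genes are complete in a single large exon. Choice of a promoter involves CTCF, cohesin, distant enhancers and DNA methylation. TOP2B is a type II topoisomerase, an enzyme that passes one DNA duplex through a transient break in another, and it is often found beside CTCF and cohesin.

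The libraries held between 20310259 and 23887013 counts assigned to genes. TOP2B itself stood at 155 and 144 CPM (counts scaled to a common library size by the TMM method) in the control libraries and at 15.3 and 13.3 CPM in the knockdown libraries, 9.58% of the control mean. The cells were checked against marker genes, of which the retinal pigment epithelium list summed to between 51.4 and 53.5 CPM in control and between 60.8 and 61.5 CPM in knockdown libraries. Within it MITF (38.2 to 44.8 CPM) and OTX2 (11.2 to 13.4 CPM) were present, while RPE65 and TTR were listed at 0 counts in every library, RLBP1 at no more than 1 count and TYRP1 at no more than 7. Of the neuronal markers, STMN2, ELAVL4 and NEUROD1 were listed at 0 counts in every library. The list of 8 summed to between 71.6 and 82.4 CPM in control and to between 54.7 and 63.3 CPM in knockdown libraries, carried by SYT1, SNAP25 and GAD1, and SYT1 was 0.45 lower on the log2 scale in the knockdown (adjusted p = 0.0493, edgeR's quasi-likelihood test with Benjamini-Hochberg adjustment). That call was lost without control replicate 1 (adjusted p = 0.265), without TOP2B knockdown replicate 1 (0.0823) and without TOP2B knockdown replicate 2 (0.226). The part of these markers in the results below was not tested.

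The promoters are shown first, because many members share a short sequence just ahead of the start of transcription, a different one in PCDHA, in PCDHB and in the PCDHGA genes of the gamma array. RefSeq promoters (GRCh38.p14, 250 bases before to 50 after the start site) were matched for 47 of the 53 members, all on the plus strand. The words of 8 bases that the most genes of a group share were searched on both strands. Among words held by equally many genes, the one in the fewest of all promoters was taken, which keeps its share over all promoters low. Over all members, GGTGGCGC tied in this way with GTGGCGCT, and 2.23% of all promoters held it. In the alternate PCDHA genes (PCDHA1 to PCDHA12) this word was ATGTCGCT (reverse complement AGCGACAT), present in 9 of 11 promoters and in 82 of all 35116 promoters, or 0.234%. In PCDHB it was GTGGCGCT (reverse complement AGCGCCAC), present in 13 of 14 promoters, all but that of PCDHB1, and in 404 of all promoters, or 1.15%. Both words end in CGCT, the core of a conserved element known from these promoters. CGCT alone, on either strand, was in 51 of the 52 promoter entries of members and in 70.0% of all promoters. Windows of 40 bases follow, with the shared word in capitals, first for PCDHA members, among them PCDHA4 and PCDHA7, the members of that array with the most counts.
PCDHA4 (chr5:140806975-140807014): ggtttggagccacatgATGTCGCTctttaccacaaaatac
PCDHA6 (chr5:140827893-140827932): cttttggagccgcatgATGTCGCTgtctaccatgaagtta
PCDHA7 (chr5:140834168-140834207): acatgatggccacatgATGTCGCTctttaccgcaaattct
PCDHA8 (chr5:140841126-140841165): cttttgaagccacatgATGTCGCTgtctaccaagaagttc
The next windows are from PCDHB and include the members with the highest levels (PCDHB13, PCDHB14 and PCDHB16) and PCDHB4, which had counts in only 1 library.
PCDHB2 (chr5:141094540-141094579): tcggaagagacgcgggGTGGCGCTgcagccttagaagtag
PCDHB4 (chr5:141121719-141121758): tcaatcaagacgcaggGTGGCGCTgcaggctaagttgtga
PCDHB16 (chr5:141182306-141182345): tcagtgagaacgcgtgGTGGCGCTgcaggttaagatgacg
PCDHB10 (chr5:141192295-141192334): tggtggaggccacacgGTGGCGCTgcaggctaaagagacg
PCDHB13 (chr5:141213861-141213900): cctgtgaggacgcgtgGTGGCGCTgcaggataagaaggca
PCDHB14 (chr5:141223259-141223298): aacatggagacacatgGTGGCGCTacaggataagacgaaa
In PCDHGA promoters the most shared word was TTAGGACT (reverse complement AGTCCTAA), found in 6 of 11 and in 0.424% of all promoters. The word itself does not hold the CGCT core, but CGCT follows it in small letters in every PCDHGA window below. The windows below take in PCDHGA10, the member with the lowest fold change, and PCDHGA8, which had too few counts to test.
PCDHGA1 (chr5:141330387-141330426): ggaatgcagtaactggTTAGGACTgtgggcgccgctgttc
PCDHGA5 (chr5:141364091-141364130): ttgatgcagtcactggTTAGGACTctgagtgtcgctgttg
PCDHGA8 (chr5:141392552-141392591): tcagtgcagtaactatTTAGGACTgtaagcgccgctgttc
PCDHGA9 (chr5:141402698-141402737): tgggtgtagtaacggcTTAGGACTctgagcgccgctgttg
PCDHGA10 (chr5:141412915-141412954): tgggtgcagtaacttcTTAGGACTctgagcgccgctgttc
The first base of the word lay 42 to 85 bases before the start site in PCDHA, 1 to 83 bases before it in PCDHB and 55 to 111 bases before it in PCDHGA.

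**Figure D1:**
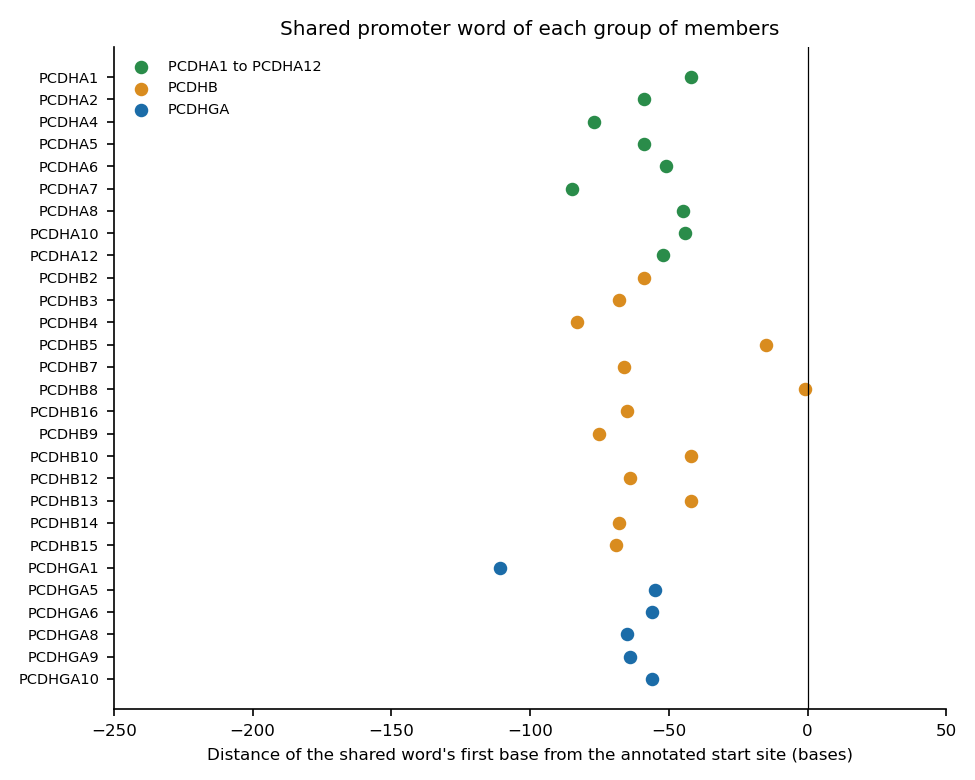
Position of the shared 8-base word in each promoter that holds it, as the distance in bases of its first base from the annotated start site (vertical line at 0), with 1 point per gene coloured by group. Most points fall in one band ahead of the start site, and PCDHB8, at 1 base before the start, and PCDHB5, at 15, lie closest to it.

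The 3 arrays were used to very different extents in these cells. The PCDHA array had very few counts: its 15 members together had 17 and 13 counts in the control libraries and 5 and 6 in the knockdown libraries, and 9 of them had no count in any library. Other genes in the table cover from 21.4% (PCDHA4) to 99.9% (PCDHA1) of the exon bases of a PCDHA member. How reads there were counted is not given, so the counts may understate the array. A count of 0 leaves room for up to 3 counts in that library by counting error alone, so such a gene was not detected rather than shown to be off. In RNA from bulk cultures, fewer cells that express a gene and less RNA per cell cannot be told apart. PCDHB summed to 44.8 and 33.2 CPM in control and to 35.2 and 28.0 CPM in knockdown libraries. PCDHG summed to 381 and 293 CPM in control and to 302 and 264 CPM in knockdown libraries. In both arrays TOP2B knockdown replicate 1 lay above control replicate 2, so that the groups overlapped. The knockdown mean was 81.0% of the control mean for PCDHB and 84.1% for PCDHG, and on the log2 scale the ratios of -0.30 and -0.25 shrank to -0.07 and -0.05 without control replicate 1. An exact permutation test of a single value cannot go below p = 0.333 with 2 libraries against 2, so the sums were not tested.

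No PCDHA member reached the minimum for testing, at least 10 counts in at least 2 libraries. PCDHA4 had 8 and 3 counts in control and 1 and 2 in knockdown libraries, and PCDHA7 had 5 and 7 counts in control and 1 in each knockdown library. PCDHA1, PCDHA2, PCDHA6 and PCDHA10 had at most 3 counts in any library. PCDHA1 has only 7 exon bases that no other gene covers, so its counts say little of its level. PCDHA3, PCDHA5, PCDHA8, PCDHA9, PCDHA11, PCDHA12, PCDHA13, PCDHAC1 and PCDHAC2 were listed at 0. The array thus included genes with and without counts that carry the same promoter word: PCDHA4, PCDHA6 and PCDHA7 hold it, and so does PCDHA8. In PCDHB, 13 of 16 members were tested, and PCDHB1, PCDHB3 and PCDHB4 had at most 6 counts in any library. In PCDHG, 18 of 22 were tested. The 4 others were PCDHGA3 with 4 to 8 counts, PCDHGA8 with 0 to 5, PCDHGA12 with 2 to 5 and PCDHGC4, which had 6 and 7 counts in control and 1 and 2 in knockdown libraries.

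Levels between genes are compared here as CPM per kilobase of exon that no other gene in the table covers, since members differ in length and the PCDHA and PCDHG genes share their constant exons. Such shared bases made up 27.5% to 64.4% of the exon bases of the tested PCDHG members. PCDHGC3, a C-type gene, whose kind is known to be expressed broadly rather than by choice, stood highest with 42.5 and 33.7 CPM per kilobase in control and 39.4 and 35.9 in knockdown libraries. PCDHGA11 followed with 23.4 and 17.5 in control and 19.0 and 16.3 in knockdown libraries. Next came PCDHGB7 with 20.5 and 15.4 in control and 12.6 and 10.5 in knockdown libraries. The range of PCDHGC3 did not touch that of PCDHGA11, whereas those of PCDHGA11 and PCDHGB7 overlapped. The other C-type genes lay far below PCDHGC3. PCDHGC5 had a mean of 1.80 CPM per kilobase, PCDHGC4 had 1 to 7 counts, and PCDHAC1 and PCDHAC2 had 0 counts in every library. A second tier of PCDHGB2, PCDHGA9, PCDHGA7 and PCDHGB1 had means of 4.48 to 5.24 CPM per kilobase and ranges that overlapped from one to the next. The 7 lowest tested members, from PCDHGA6 down to PCDHGA10, lay at or below 0.370 CPM per kilobase in every library.

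PCDHB members lay lower and closer together. PCDHB14, PCDHB13 and PCDHB16 had means of 1.66, 1.64 and 1.497 CPM per kilobase with overlapping ranges, and their order is not resolved. When all exon bases were used in place of the unshared ones, PCDHB13 came before PCDHB14, and the 3 leading PCDHG genes kept their order. PCDHB6 was the lowest of the tested members, at 0.0156 to 0.145 CPM per kilobase. Across the 13 tested PCDHB genes and the 18 tested PCDHG genes the level went only weakly with position along the array (Spearman's rho 0.38 and 0.21, across genes that share the same 4 libraries and are not independent replicates).

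**Figure D2:**
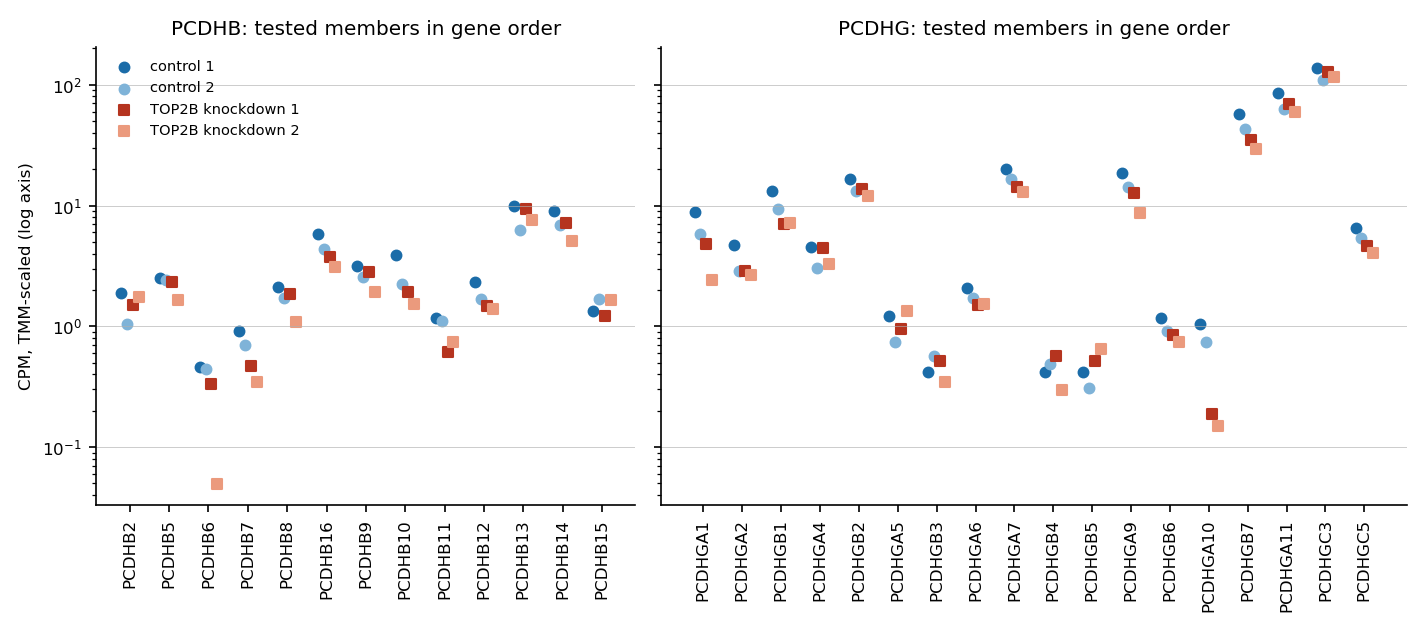
TMM-scaled CPM (log axis) of the tested PCDHB (left) and PCDHG (right) members in gene order, with 1 point per library (circles control, squares TOP2B knockdown, darker shade replicate 1). PCDHGC3, PCDHGA11 and PCDHGB7 stand at 29.2 to 138 CPM, and PCDHGA10 is the member whose 2 knockdown points (0.189 and 0.149 CPM) lie farthest below its control points (1.04 and 0.746 CPM).

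Of the 31 tested members, 2 were called lower and 0 higher in the TOP2B knockdown at an adjusted p below 0.05 (edgeR's quasi-likelihood test with Benjamini-Hochberg adjustment over all 15356 genes tested). Over all genes tested, 10.8% were called, 4.18% as lower and 6.66% as higher, so that 2 of 31 was not far from the share of all genes. At an unadjusted p below 0.05 there were 8 members, all lower, where 26.3% of all genes had such a p and 11.8% were lower with it. DESeq2 gave an adjusted p to 23 of the 31 members and called 2 lower, PCDHGB7 and PCDHGA1. Of all genes with an adjusted p it called 4.77% lower. Both genes called by edgeR belong to PCDHG. They are neighbours in the array, PCDHGA10 (ENSG00000253846, chr5:141412987-141512975) and PCDHGB7 (ENSG00000254122, chr5:141417645-141512975), each encoding a cell surface protocadherin that ends in the common gamma constant region.

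PCDHGA10 had 25 and 17 counts in the control libraries and 4 and 3 in the knockdown libraries. The groups were well apart, but on few counts. In CPM this was 0.895 ± 0.211 against 0.169 ± 0.028 (SD, n = 2), a log2 fold change of -2.37 with a standard error of 0.52 and an interval from -3.54 to -1.20. The adjusted p was 0.0199 with edgeR and 0.0625 without control replicate 1, and DESeq2 gave none.

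PCDHGB7 rested on far more reads, with 1365 and 979 counts in control and 745 and 589 in knockdown libraries. At 57.0 and 42.9 CPM against 35.2 and 29.2 CPM the groups did not overlap. The log2 fold change was -0.63 (standard error 0.16, interval from -0.99 to -0.28, adjusted p = 0.0330 with edgeR), which left 64.4% of the control mean. The call was lost without control replicate 1 (adjusted p = 0.161) and without TOP2B knockdown replicate 2 (0.0775), and also when genes with a mean under 100 counts were left out (0.0553), in each case with the same direction.

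The promoters of both called genes are given with that of PCDHGC3, which differed by -0.02 on the log2 scale between the groups with an interval from -0.33 to 0.30. Capitals mark the word most shared in each subfamily: TTAGGACT in PCDHGA10, TCTGGGCG in PCDHGB7 (5 of 7 PCDHGB genes and 1.96% of all promoters) and CTGCTCAG in PCDHGC3 (3 of 4 C-type genes and 2.55% of all promoters).
PCDHGA10 (chr5:141412737-141413036): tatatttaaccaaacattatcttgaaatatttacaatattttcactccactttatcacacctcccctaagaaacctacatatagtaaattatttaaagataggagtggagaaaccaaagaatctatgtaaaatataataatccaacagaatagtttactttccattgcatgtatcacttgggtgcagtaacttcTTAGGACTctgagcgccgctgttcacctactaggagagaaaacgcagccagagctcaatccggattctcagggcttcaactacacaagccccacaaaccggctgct
PCDHGB7 (chr5:141417427-141417726): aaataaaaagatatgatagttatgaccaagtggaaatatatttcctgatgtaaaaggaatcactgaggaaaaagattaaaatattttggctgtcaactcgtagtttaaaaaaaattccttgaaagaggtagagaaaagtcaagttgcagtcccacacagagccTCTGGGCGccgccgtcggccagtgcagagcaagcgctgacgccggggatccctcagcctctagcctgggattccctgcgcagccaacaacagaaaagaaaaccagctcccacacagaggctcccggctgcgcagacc
PCDHGC3 (chr5:141475716-141476015): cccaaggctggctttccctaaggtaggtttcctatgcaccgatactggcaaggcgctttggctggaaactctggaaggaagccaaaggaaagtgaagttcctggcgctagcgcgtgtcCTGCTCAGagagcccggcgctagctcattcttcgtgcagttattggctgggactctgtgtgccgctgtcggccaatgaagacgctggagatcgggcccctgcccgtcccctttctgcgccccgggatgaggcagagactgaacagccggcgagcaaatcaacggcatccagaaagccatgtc
They differ in base composition. The promoter of PCDHGA10 had 38.3% G and C and 5 CpG, that of PCDHGB7 47.7% and 11, and that of PCDHGC3 59.0% and 18. The median over PCDHG promoters was 47.3% with 10 CpG, close to PCDHGB7. Over all member promoters it was 40.7% with 7.5 CpG and over all promoters 58.7% with 14. The 5 tested PCDHGA genes with TTAGGACT had log2 fold changes from -2.37 to 0.21, and the 4 without it from -0.44 to 0.02, ranges that overlap.

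Several more PCDHG genes lay below their controls without passing the threshold. PCDHGA1, the first gene of the array, had 8.81 and 5.79 CPM in control and 4.81 and 2.43 CPM in knockdown libraries. Its log2 fold change was -1.01 (standard error 0.31, adjusted p = 0.0689 with edgeR), and it was called by DESeq2 (adjusted p = 0.0397). PCDHGB1 had 13.1 and 9.34 CPM in control and 6.98 and 7.14 CPM in knockdown libraries, a log2 fold change of -0.67 (adjusted p = 0.0576 with edgeR). These genes, like PCDHGA9 (-0.61) and PCDHGA7 (-0.44), had control and knockdown libraries that did not overlap. PCDHGC5, another C-type gene, stood at -0.45 with an interval from -0.90 to 0.004.

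The 2 most abundant PCDHG genes were not called. PCDHGC3 had 138 and 110 CPM in control and 128 and 117 CPM in knockdown libraries, so that both knockdown values lay between the control values. PCDHGA11 had 85.1 and 63.6 CPM in control and 69.1 and 59.3 CPM in knockdown libraries, a log2 fold change of -0.21 with an interval from -0.56 to 0.13. PCDHGB2 stood at -0.20 and PCDHGA4 at 0.02, with overlapping libraries. PCDHGB5 was the single member with both knockdown libraries above both controls, at 11 and 13 against 10 and 7 counts, with a log2 fold change of 0.67 and an interval from -0.39 to 1.73.

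None of the 13 tested PCDHB members was called by edgeR, where 10.8% of all genes were. DESeq2 gave an adjusted p to 10 of them and called none, where it called 11.6% of all genes with an adjusted p. With edgeR, 2 members had an unadjusted p below 0.05 (PCDHB10 and PCDHB16, both lower), a share near the 11.8% of all genes that were lower at that p. PCDHB10 had 3.88 and 2.24 CPM in control and 1.935 and 1.54 CPM in knockdown libraries, a log2 fold change of -0.82 with an interval from -1.54 to -0.10. PCDHB16 had 5.80 and 4.34 CPM in control and 3.73 and 3.12 CPM in knockdown libraries, with -0.57 and an interval from -1.08 to -0.05. In both genes the groups did not overlap, and the gap between them was smaller than the distance between the controls. The other 2 leading genes of the array had overlapping groups. PCDHB13 had 9.94 and 6.27 CPM in control and 9.39 and 7.54 CPM in knockdown libraries, a log2 fold change of 0.06 with an interval from -0.46 to 0.58. PCDHB14 had 8.935 and 6.93 CPM in control and 7.22 and 5.06 CPM in knockdown libraries, a log2 fold change of -0.37 with an interval from -0.86 to 0.12. The most negative value of the array, -1.20 for PCDHB6, came from 11 and 10 counts in control and 7 and 1 in knockdown libraries, with an interval from -2.74 to 0.35.

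**Figure D3:**
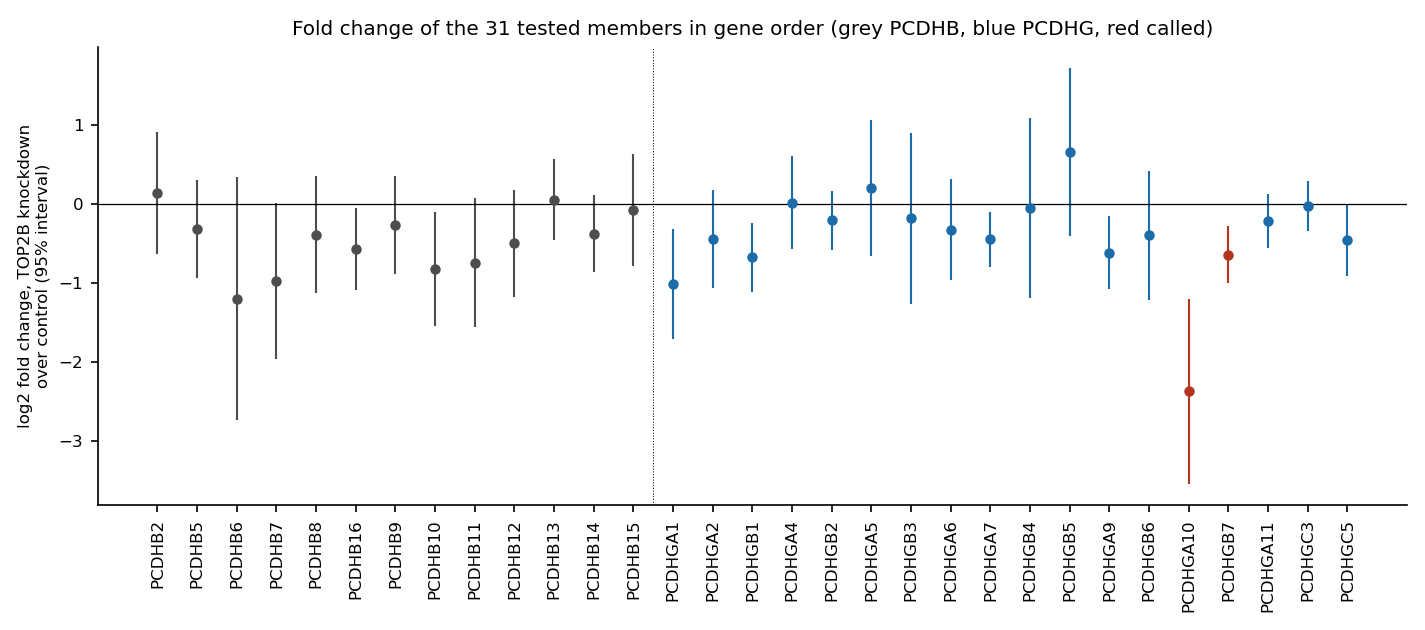
Log2 fold change (TOP2B knockdown over control) of the 31 tested members in gene order, points with 95% intervals from edgeR, grey for PCDHB, blue for PCDHG and red for the 2 called genes. Of the points, 26 lie below 0, and most intervals cross 0.

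Read as a whole, 26 of the 31 tested members had a negative log2 fold change, 11 of 13 in PCDHB and 15 of 18 in PCDHG, against 50.2% of all genes tested. The median was -0.39 in PCDHB and -0.35 in PCDHG, where all genes tested had a median of -0.003 and quartiles at -0.22 and 0.26. Control and knockdown libraries did not overlap in 16 members that were lower and in 1 that was higher, where 26.6% and 27.7% of all genes did so. These counts describe the members that had enough reads, and members are not independent, since they share the same 4 libraries. The replicates of a group also differed in the same sense across members. Replicate 1 was above replicate 2 in 28 of the 31 in control and in 24 in knockdown libraries, by a median of 0.35 and 0.22 on the log2 scale, whereas the median over all genes was 0.013 and 0.0021. Without control replicate 1 no member was called, where 3.48% of all genes were called lower, and the medians were -0.22 and -0.19. Without control replicate 2, 1 PCDHB and 5 PCDHG members were called lower beside 3.47% of all genes. Without TOP2B knockdown replicate 1 there were 4 PCDHG members beside 3.04% of all genes, and without TOP2B knockdown replicate 2 there was 1 beside 3.22%.

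The share of each member in the sum of its array does not depend on how much of the array a library holds. PCDHGC3 made up 36.3% and 37.5% of the PCDHG sum in control and 42.4% and 44.2% in knockdown libraries. PCDHGB7 made up 14.96% and 14.7% in control and 11.6% and 11.04% in knockdown libraries. PCDHGA11 was level, with 22.3% and 21.7% in control and 22.8% and 22.4% in knockdown libraries. For PCDHGC3 and PCDHGB7 the gap between the groups was larger than the distance between replicates of either group. In PCDHB, PCDHB13 went from 22.2% and 18.9% in control to 26.7% and 27.0% in knockdown libraries. PCDHB16 went from 12.97% and 13.1% to 10.6% and 11.2%, and PCDHB10 from 8.68% and 6.74% to 5.50% in both. Shares of 1 array are tied together, so that a lower share of one gene raises those of the others, and with 2 libraries a group they were not tested.

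**Figure D4:**
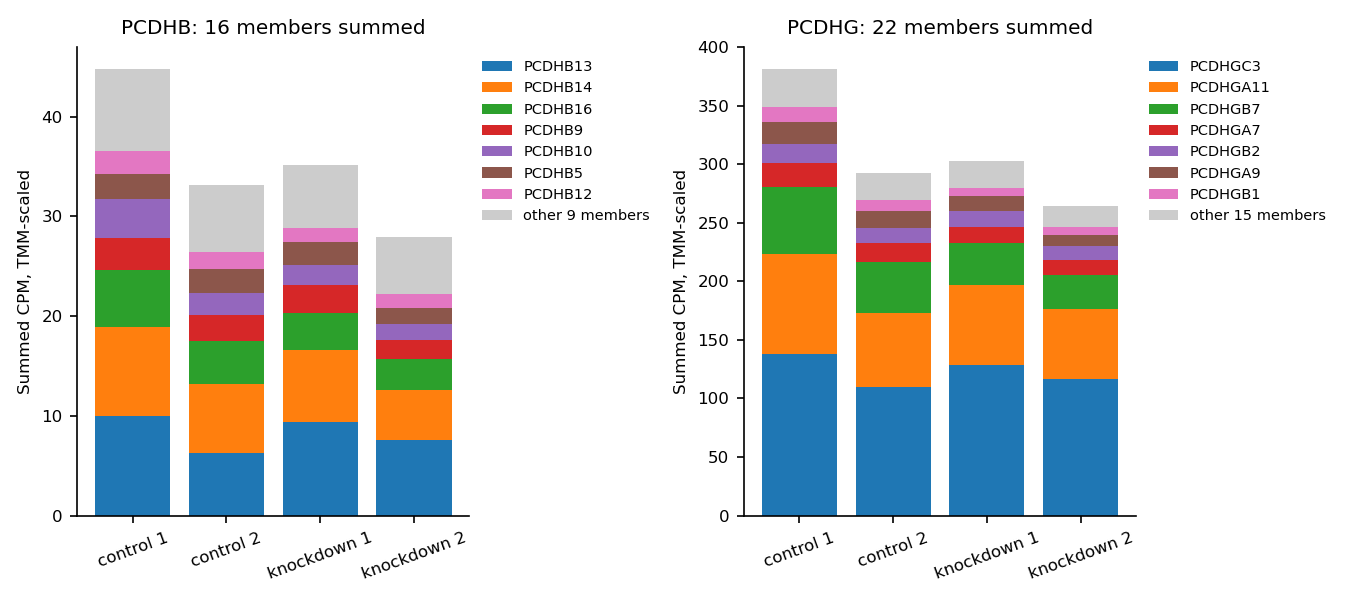
Summed TMM-scaled CPM of all PCDHB (left, 16 members) and PCDHG (right, 22 members) genes in each library, stacked by the 7 most abundant members and the rest. Control replicate 1 has the tallest bar in both arrays (44.8 and 381 CPM), and the PCDHGC3 segment keeps its height (110 to 138 CPM) while that of PCDHGB7 is shorter in the knockdown libraries.

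Transcripts of 1 array can also share their 3′ ends. In the GENCODE v44 canonical transcripts all 15 PCDHA genes had one and the same 3′ UTR of 2410 bases and all 22 PCDHG genes one of 1802 bases, while the 16 PCDHB genes each had their own. The 6-base word GCAACC was in 39.3% of the 3′ UTRs of genes called higher, 19.8% of those called lower and 23.6% of those of all tested protein-coding genes. The word was fixed, not found by a search described here, and the source of its choice is not given. Earlier results of these data were known, so its shares only describe the calls and are no independent test. These 3′ UTRs ran from 50 to 32870 bases, and the shares were not adjusted for length. The word was in neither of the shared 3′ UTRs and in 8 of the 16 of PCDHB. The 7 tested PCDHB genes with the word had a median log2 fold change of -0.49 and the 6 without it one of -0.38, with overlapping ranges. The PCDHG members with the lowest and the highest fold change carry the same annotated 3′ UTR. Any part of the word in the fold changes was not tested.

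Of the 6 pseudogenes of the arrays, 2 were tested and 0 called, where 10.8% of all genes were called. None had an unadjusted p below 0.05 (26.3% of all genes). DESeq2 called neither, but it gave no adjusted p to some members with few counts, so it may have been unable to. PCDHB18P had 16 and 16 counts in control and 13 and 15 in knockdown libraries, and PCDHGB8P had 13 and 14 against 10 and 6. Of 11 protocadherins encoded outside the arrays, 5 were tested, and again none was called by edgeR or had an unadjusted p below 0.05. Some of these 5 also had few counts, and DESeq2 called none of them. PCDH1, the most abundant of them, had 18.3 and 15.4 CPM in control and 21.0 and 19.6 CPM in knockdown libraries, a log2 fold change of 0.27. Their median was -0.15.

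Genes that set the state of the arrays were looked at next. Of 11 genes of insulation and cohesin, all tested, 0 were called higher and 1 lower, where 6.66% and 4.18% of all genes were. Of the 11, 9 had a positive log2 fold change and the median was 0.31. In 8 of them both knockdown libraries lay above both controls (27.7% of all genes did so), and 6 of the 11 had an unadjusted p below 0.05 (26.3% of all genes). The cohesin subunits STAG2, SMC3 and RAD21 stood at 0.38, 0.33 and 0.31 and were not called. The gene called lower was MAU2, which helps to load cohesin, with 81.3 and 71.8 CPM in control and 58.6 and 51.5 CPM in knockdown libraries and a log2 fold change of -0.48 (adjusted p = 0.0413 with edgeR). Its call was lost without control replicate 1 (adjusted p = 0.210), TOP2B knockdown replicate 1 (0.0531) or TOP2B knockdown replicate 2 (0.215). CTCF, the insulator protein that binds many protocadherin promoters, had 66.3 and 66.1 CPM in control and 76.3 and 77.3 CPM in knockdown libraries and was not called (log2 fold change 0.21). Of 22 silencing regulators 2 were called, both higher, and the median of the list was 0.08. Over all genes 6.66% were called higher, so that 2 of 22 was not far from that share. DNMT1, the maintenance DNA methyltransferase, had 145 and 153 CPM in control and 329 and 319 CPM in knockdown libraries. It rose by 1.12 on the log2 scale (standard error 0.13, adjusted p = 0.00117 with edgeR), and the call held in every alternative run. EHMT2, a histone H3 lysine methyltransferase, rose by 0.47 (adjusted p = 0.0288 with edgeR), from 61.8 and 61.7 to 83.7 and 87.2 CPM, and that call was lost when any 1 of the 4 libraries was left out (adjusted p from 0.0818 to 0.165). SMCHD1, which helps to silence these arrays, had a log2 fold change of 0.33 and was not called. Neither the 3′ UTR of DNMT1 nor that of EHMT2 holds GCAACC.

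Of 22 partners and proteases of the protocadherins, 21 were tested, 2 called higher and 0 lower, with a median of -0.10. Over all genes 6.66% were called higher, so that 2 of 21 was not far from that share. WASF2, a subunit of the WAVE complex that binds protocadherin tails and drives actin assembly, rose by 0.76 (adjusted p = 0.00464 with edgeR), from 87.0 and 92.3 to 146 and 157 CPM, and its 3′ UTR holds 1 copy of GCAACC. NCSTN, the nicastrin subunit of the gamma-secretase that cleaves protocadherins after shedding, rose by 0.91 (adjusted p = 0.00462 with edgeR), from 101 and 79.9 to 179 and 160 CPM, with no copy of the word. ADAM10, the shedding protease, stood at -0.31 with overlapping libraries.

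The arrays were set beside the genes around them to see whether members and neighbours differed alike. Within 1000 kb of the outer ends of the arrays lie 38 other protein-coding genes (PCDH1 and PCDH12 of the list above among them). Of these, 32 were tested, 2 called higher and 4 lower, where 6.66% and 4.18% of all genes were, with a median log2 fold change of -0.20. An unadjusted p below 0.05 was found for 15 (26.3% of all genes), and DESeq2 called 8 (11.6% of all genes with an adjusted p). Both knockdown libraries lay below both controls in 12 and above them in 9, where 26.6% and 27.7% of all genes did so. DIAPH1, a formin of the actin cytoskeleton whose 3′ end lies 2.04 kb beyond the gamma array, had 273 and 243 CPM in control and 197 and 174 CPM in knockdown libraries, a log2 fold change of -0.48 (adjusted p = 0.0525 with edgeR), just short of the threshold. TAF7, a subunit of the TFIID complex that lies between PCDHB and PCDHG, stood at -0.10 with overlapping libraries. The called neighbours were of both signs. ARAP3, a GTPase-activating protein, rose by 1.13 (adjusted p = 0.000754 with edgeR), from 40.3 and 36.8 to 83.6 and 85.2 CPM, 140 kb beyond PCDHG. WDR55 on the PCDHA side rose by 0.53. FCHSD1, close to ARAP3, was at -0.57, and NRG2, PURA and IGIP, on the PCDHA side at 743, 661 and 657 kb from the array, were at -0.72, -0.43 and -0.80. The calls of ARAP3 and NRG2 held in every alternative. Those of IGIP (adjusted p = 0.0573 and 0.0875) and FCHSD1 (0.0992 and 0.0598) were lost when control replicate 1 or TOP2B knockdown replicate 2 was left out, that of WDR55 without control replicate 2 (0.178) or TOP2B knockdown replicate 1 (0.0907), and that of PURA without any 1 library (0.0952 to 0.283).

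**Figure D5:**
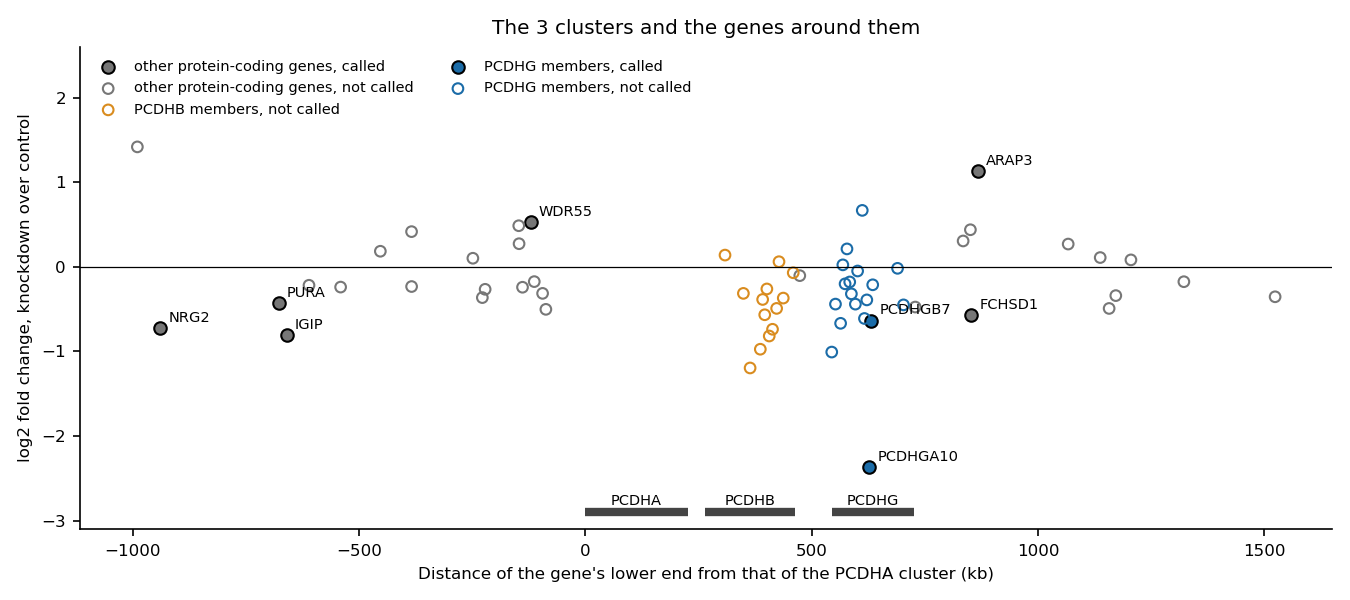
Log2 fold change (TOP2B knockdown over control) of tested array members and of the other tested protein-coding genes within 1000 kb, against distance in kb from the lower end of PCDHA, with bars for the span of each array and filled points for called genes. The 6 called neighbours lie on both sides of the arrays and on both sides of 0, and PCDHGA10 (-2.37) is the lowest point.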

How the data were processed

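Total RNA of RPE1 SunTag cells was made into polyA libraries (TruSeq RNA LT kit) and sequenced as single-end reads. The authors mapped the reads with STAR 2.5.4a to GRCh38 with Gencode v24 and made gene counts during mapping (FastQC 0.11.6 for read quality, per the submitters' processing notes). The deposited values are raw counts per gene. In the headers of the table each library is marked as stranded and PE, whereas the labels give single-end reads. Whether strand was used in counting is therefore uncertain, so that reads of a member and of an overlapping antisense gene may not be told apart. How reads in exons shared by several genes were counted is not given in the sources used here. Each library stands in the table as 2 columns with identical values, and the second copies (4 columns) were not used.

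A gene was tested if 2 or more libraries held 10 or more of its counts (15356 of 60725 genes), by a fit in edgeR 4.0.16 (R 4.3.3) with TMM scaling, the quasi-likelihood test and Benjamini-Hochberg adjustment, and called at an adjusted p below 0.05. DESeq2 1.42.0 was run as an alternative, beside other scalings and filters, a replicate term and the omission of each library. The scripts were tested on simulated data. Symbols, positions and 3′ UTRs came from GENCODE v44 of GRCh38. The exon bases behind the levels per kilobase, and those shared with a gene on either strand, also came from v44. The counts were made with Gencode v24, so these lengths may differ from the gene models that were counted. Named genes are every called member, the 3 members per array with the highest CPM per kilobase, each called gene of the other lists and TOP2B, and other members are given by counts or range. The other genes named with values (among them members short of the threshold, CTCF, STAG2, SMC3, RAD21, SMCHD1, ADAM10, PCDH1, DIAPH1 and TAF7) were chosen after their values were seen. The members and lists were chosen with earlier results of these data known. Intervals are 95%, and the limit from a count of 0 covers counting error only. The study describes the replicates as independent.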

Additional observations from a re-analysis of the deposited data

How the results depend on the processing

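The numbers of called members depended on the processing more than their direction did. With no filter on counts, 985 genes over the whole table, 1 PCDHB and 5 PCDHG members were called lower (3.35% of all genes), and with a mean of at least 100 counts no PCDHG member was, as 9 of them remained to be tested and PCDHGB7 had an adjusted p of 0.0553. The same filter ended the calls of MAU2, PURA and SYT1 (adjusted p = 0.0540, 0.0549 and 0.0610 with edgeR), and library totals that of SYT1 (0.0516). The filter left 2 PCDHB members with a median log2 fold change of -0.15. With 1 library left out, 0 to 1 PCDHB and 0 to 5 PCDHG members were called lower, where 3.04% to 3.48% of all genes were, and the medians ranged from -0.60 to -0.22 in PCDHB and from -0.50 to -0.19 in PCDHG. A left-out library leaves 1 library in its group, which is then assumed to vary like the other group. Library totals or the size factors of DESeq2 in place of TMM gave the same 2 called members. No named gene changed its sign past the threshold in any alternative.

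The replicate numbers of the groups mark no shared culture or day in the labels, and there are only 2 pairs. Deviations from the group means correlated between same-numbered libraries with r = 0.48 across the 15356 genes tested and -0.17 across the 31 members. An r across members leaves out any shift they have in common. In control libraries replicate 1 was above replicate 2 in 28 of the 31, and in knockdown libraries in 24, so the -0.17 does not show that the members lack a shared shift. With the replicate block, 3440 genes were called higher and 3346 lower, among them 3 PCDHB and 8 PCDHG members, all lower, where 21.8% of all genes were called lower. DESeq2 gave no adjusted p to 8 of the 31 members.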

Other observations

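Some members with too few counts to test had fewer counts in both knockdown libraries than in either control library. These were chosen after their values were seen, and they have no test. Besides PCDHA4, PCDHA7 and PCDHGC4, the pseudogene PCDHB19P had 7 and 8 counts in control and 2 and 2 in knockdown libraries.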
